A study of Caenorhabditis elegans with 6 samples.

Results

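The DBL-1 pathway is the bone morphogenetic protein (BMP) type of signalling that sets body size in Caenorhabditis elegans. It is described here through 10 genes chosen by name: dbl-1, sma-2, sma-3, sma-4, sma-6, sma-9, sma-10, lon-1, lon-2 and sup-17, out of 22389 genes with a read count in the deposited table. All 10 had enough reads to be among the 13778 genes tested. Polyadenylated RNA of adult worms on solid medium was sequenced in 3 libraries labelled linc-4, which carry a CRISPR deletion of the long intergenic non-coding RNA gene linc-4 in the N2 background, and in 3 libraries of N2, the laboratory wild type. By its title the series is about germline lincRNAs and somatic growth, and the comparison asks here whether the transcripts of this growth pathway differ without linc-4. The sources used here do not give the extent of the deletion, the sex and age in hours of the adults, the number of worms per library or whether libraries came from separate cultures. The p-values thus measure the spread between these libraries, which may be technical.

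In this pathway the secreted ligand DBL-1, made largely by neurons, binds type I and type II receptor kinases on epidermal and other cells, and the activated receptors phosphorylate Smad proteins that enter the nucleus and change transcription. Worms that lose the ligand, a receptor or a Smad are small (Sma), and worms that lose an inhibitor of the pathway are long (Lon). The size difference arises mostly in larval and young adult growth, and the pathway also acts in male tail patterning, mesoderm fate, lipid stores and defence against microbes.

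Total gene counts ran from 6560089 to 12790323 in linc-4 libraries and from 3736372 to 7428665 in wild type libraries. The deletion was visible in the target itself: linc-4 had 5, 1 and 1 reads in linc-4 libraries, against 193, 345 and 234 in wild type libraries. Below, a gene that fell or rose was lower or higher in linc-4 with an adjusted p under 0.05 by limma-voom. Of all 13778 tested genes 7.18% fell and 11.5% rose. Adult markers were present in all 6 libraries. The 7 vitellogenin and adult collagen genes summed to 4293 to 4516 CPM (read counts scaled to the library size) in linc-4. In wild type they summed to 5518 to 6798 CPM. Of these 7 genes 4 fell and none rose, and all 7 had a fitted change below 0. Of 3 tested early embryo markers 2 fell and none rose. Moulting larva markers summed to 166.2 to 191.6 CPM in linc-4 and 149.2 to 165.8 CPM in wild type. Of 7 such markers 1 rose and none fell, and 3 had a fitted change below 0. Of 16 oocyte and germline markers 11 fell and none rose, and of 8 tested sperm markers 6 rose and none fell, with sums of 439 to 510 CPM in linc-4 and 202 to 273 CPM in wild type. None of the markers of any tissue was at or under 3 reads in all. In whole worms, fewer cells of a type and less RNA per cell cannot be told apart.

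Of the 10 pathway genes, 1 fell (sup-17), 1 rose (sma-10) and 8 did not pass the threshold, an adjusted p under 0.05 by limma-voom over all tested genes. Over all 13778 tested genes 18.7% passed, 11.5% as rises and 7.18% as falls, so that 2 of 10 is a share close to that of the transcriptome. The median log2 fold change (linc-4 over wild type) was 0.14 over the 10 genes and -0.01 over all tested genes. The 8 other fitted changes lay between -0.31 (lon-2) and 0.30 (sma-2), and their adjusted p between 0.33 and 0.98. In this fit each of these 8 genes had a 95% interval that lay inside -0.83 to 0.79 on the log2 scale. A 2-fold change in either direction was thus outside all 8 intervals of this fit, each taken on its own. For dbl-1 that bound rested on single libraries. Its value was -0.62 (SE 0.29) without wild type 2 and 0.27 (SE 0.42) without wild type 3. In both cases a 2-fold change was within 2 SE of the fitted value. In none of the 8 did the libraries of the groups stand apart without overlap. Over all tested genes 21.2% stood apart as higher in linc-4 and 17.7% as lower.

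**Figure D1:**
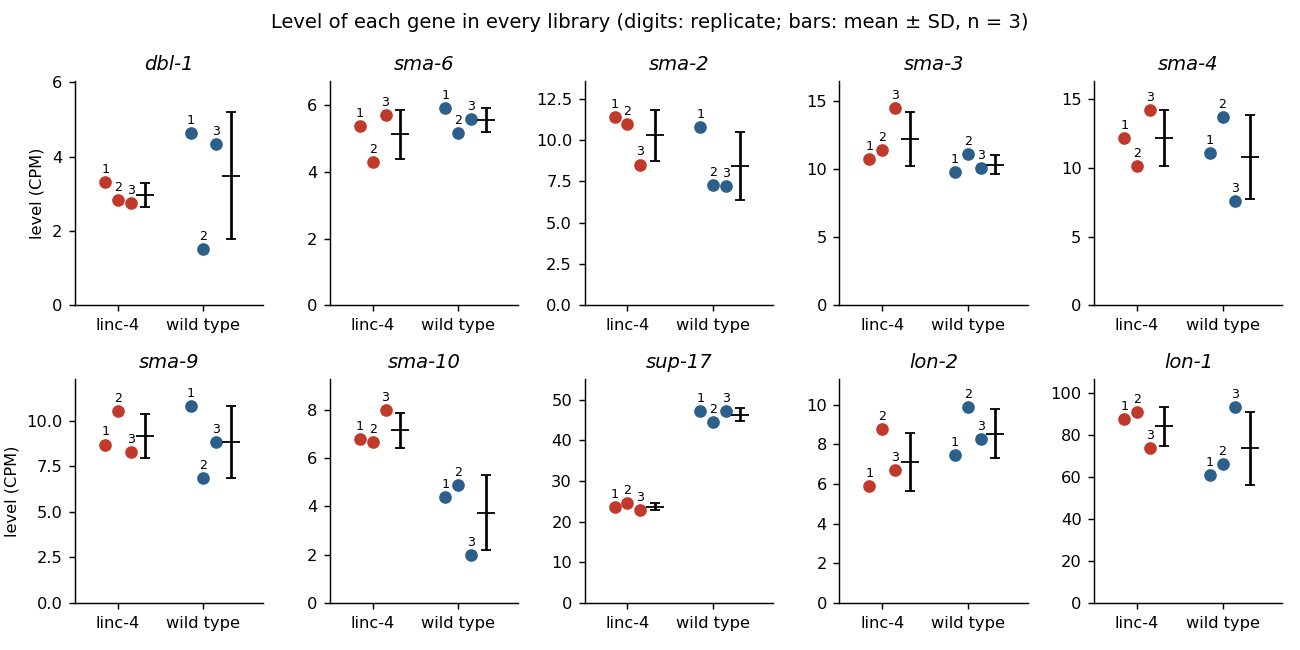
Level of each of the 10 genes in CPM (vertical axis, from 0) in every library, with linc-4 in red on the left and wild type in blue on the right of each panel; digits give the replicate and bars the mean ± SD of 3 libraries. The groups do not overlap for sup-17, lower in linc-4, and sma-10, higher in linc-4, and overlap for the other 8 genes. Over all tested genes 17.7% are lower and 21.2% higher in linc-4 with no overlap.

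The ligand was scarce in both groups. dbl-1 (WBGene00000936, chromosome V from 6758135 to 6760418, + strand, WBcel235) had 26, 19 and 36 reads in linc-4 libraries and 18, 10 and 24 in wild type libraries. These reads made 3.33, 2.82 and 2.74 CPM in linc-4, against 4.63, 1.52 and 4.33 CPM in wild type. The linc-4 values all lay between the lowest wild type library, replicate 2, and the other wild type libraries. The log2 fold change was -0.02 (SE 0.37; 95% interval -0.83 to 0.79), the widest interval of the 8 genes that did not pass. Its fitted value rested on single libraries: it was -0.62 without wild type 2 and 0.27 without wild type 3, and neither passed.

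Outside the cell, DBL-1 meets the glypican LON-2, a heparan sulphate proteoglycan of the cell surface that binds BMP-type ligands and holds the pathway down. lon-2 (WBGene00003056, chromosome X from 4738964 to 4749083, - strand) had 5.89, 8.76 and 6.70 CPM in linc-4, against 7.46, 9.89 and 8.30 CPM in wild type. The groups overlapped, with only linc-4 replicate 2 inside the wild type range. Its log2 fold change of -0.31 (SE 0.22; 95% interval -0.79 to 0.16) was the lowest of the 8 genes that did not pass.

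sup-17 was the member that fell. It encodes an ADAM metalloprotease of the ADAM10 type, which cleaves membrane proteins at the cell surface, promotes DBL-1 signalling together with the tetraspanin TSP-12, and also cleaves Notch receptors. sup-17 (WBGene00006324, chromosome I from 8792965 to 8797293, + strand) had 184, 165 and 300 reads in linc-4 libraries and 184, 292 and 262 in wild type libraries. Its level was 23.6, 24.5 and 22.8 CPM in linc-4, against 47.3, 44.5 and 47.3 CPM in wild type. The highest linc-4 library was far below the lowest wild type library, and the spread within each group was the smallest of the 10 genes (coefficient of variation 3.54% in each). Over all tested genes, 17.7% were lower in linc-4 with no overlap between the groups. The mean was 23.6 ± 0.837 CPM in linc-4 and 46.3 ± 1.64 CPM in wild type (SD, n = 3 each), a log2 fold change of -0.97 (SE 0.14; limma-voom adjusted p = 0.00089), or 1.96-fold lower in linc-4.

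The sup-17 call held when any library was left out, with log2 fold changes from -1.01 to -0.94 and an adjusted p of 0.0082 at most. It also held with the other scalings and filters tried and in the authors' deposited table, where the log2 fold change was -0.99 and the adjusted p 3.8e-06. Against a minimum change of 0.5 on the log2 scale, a test that 1.71% of all genes passed, sup-17 did not pass (adjusted p = 0.11). No annotated gene overlaps sup-17, so its reads were not shared with a neighbour.

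Germline markers moved with sup-17. The 16 oocyte and germline markers summed to between 1483 and 1571 CPM in linc-4 and between 2281 and 2624 CPM in wild type, and their median log2 fold change was -0.70. The oocyte polarity gene mex-5 fell most (log2 fold change -1.01, limma-voom adjusted p = 0.0013), while glp-1, the germline Notch receptor, had -0.37 and did not pass (adjusted p = 0.28). Set against the summed germline markers of the same library, sup-17 stood at 1.5%, 1.65% and 1.54% in linc-4, against 2.07%, 1.69% and 1.82% in wild type. On that scale the linc-4 libraries were the lower ones, by less than in CPM, and the nearest libraries were linc-4 2 (1.65%) and wild type 2 (1.69%). The log2 fold change of sup-17, -0.97, lay inside the range of the single markers, from -1.01 (mex-5) to 0.26 (syp-1). The part of germline content in the fall of sup-17 was not tested.

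**Figure D2:**
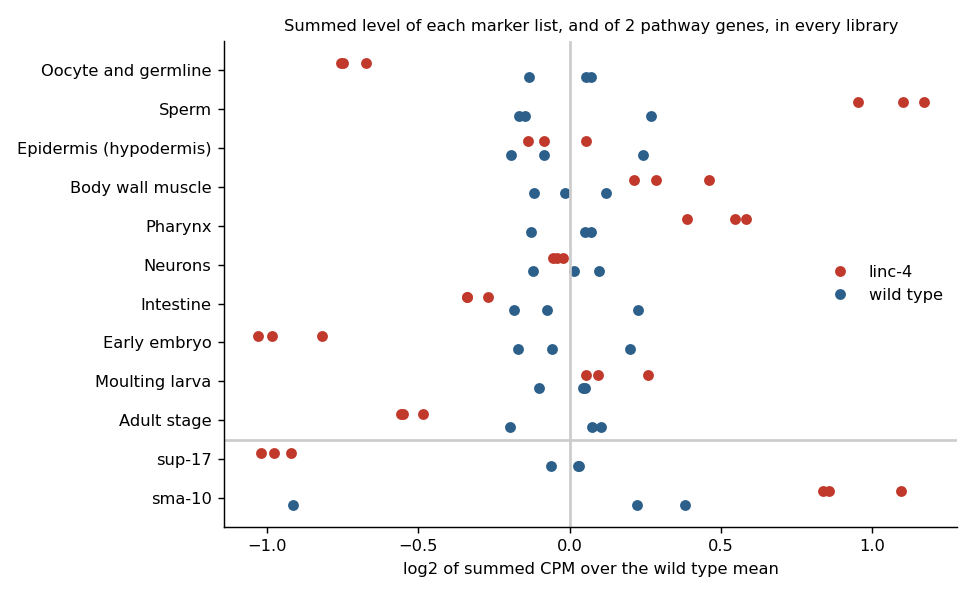
Summed CPM of each marker list (upper rows) and the CPM of sup-17 and sma-10 (lower rows) in every library, as log2 of the ratio to the wild type mean (horizontal axis), with linc-4 in red and wild type in blue. In all 3 linc-4 libraries oocyte and germline, early embryo, adult stage and intestine markers and sup-17 lie below 0. Sperm, pharynx, muscle and moulting larva markers and sma-10 lie above 0 in all 3. Neuron sums lie just below 0 in linc-4, and neuron and epidermis sums overlap between the groups.

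The type I receptor gene overlapped between the groups. SMA-6 is the type I receptor kinase of the pathway and acts in the epidermis to set body length. sma-6 (WBGene00004860, chromosome II from 6324484 to 6327355, + strand) had 5.38, 4.31 and 5.71 CPM in linc-4, against 5.91, 5.18 and 5.59 CPM in wild type, with a log2 fold change of -0.10 (SE 0.23; 95% interval -0.59 to 0.39). It is the only one of the 10 genes on the chromosome of linc-4, whose end lies 55.0 kb before the start of sma-6. Of the 12 tested genes between them 1 passed the threshold.

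The type II receptor DAF-4, shared with the dauer pathway of the ligand DAF-7, is not one of the 10 genes and was given whatever its value. daf-4 had 10.4, 8.62 and 9.52 CPM in linc-4, against 12.3, 13.4 and 11.005 CPM in wild type. All linc-4 libraries were below all wild type libraries, as for 17.7% of all tested genes. The log2 fold change of -0.37 (SE 0.19) did not pass (limma-voom adjusted p = 0.18).

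sma-10 was the member that rose. It encodes a transmembrane protein with leucine-rich repeats and immunoglobulin domains, of the LRIG family, which binds the receptors and promotes signalling. sma-10 (WBGene00020649, chromosome IV from 274570 to 279940, + strand) had 53, 45 and 105 reads in linc-4 libraries and 17, 32 and 11 in wild type libraries. These made 6.79, 6.68 and 7.99 CPM in linc-4, against 4.37, 4.87 and 1.98 CPM in wild type. Every linc-4 library was above every wild type library, as for 21.2% of all tested genes, and wild type 3 was the lowest by a wide margin. The mean was 7.16 ± 0.729 CPM in linc-4 and 3.74 ± 1.54 CPM in wild type (SD, n = 3 each), a log2 fold change of 1.02 (SE 0.30; limma-voom adjusted p = 0.034), or 2.03-fold higher in linc-4. By summed reads, 203 in linc-4 and 60 in wild type, the ratio was 1.96 after scaling, with a 95% counting interval of 1.46 to 2.65 (exact binomial, for counting error only).

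The sma-10 call was close to the threshold. It was lost without any 1 of the linc-4 libraries and without wild type 1 or wild type 3, where the adjusted p ran from 0.055 to 0.15. Without wild type 3 the log2 fold change was 0.61, and without wild type 2 it was 1.33 with an adjusted p of 0.018. With the replicate number as a block the adjusted p was 0.059. The authors' deposited table gives a log2 fold change of 0.93 with an adjusted p of 0.071, in a table where 11.5% of the genes with an adjusted p are under 0.05. No annotated gene overlaps sma-10. The summed pharynx markers also stood higher, at 267 to 306 CPM in linc-4 and 186 to 214 CPM in wild type, with 2 of 6 markers past the threshold (the troponin genes tnc-2 and tnt-4, both up). The other 4 had log2 fold changes of 0.12 (myo-1), 0.08 (myo-2), -0.04 (pha-4) and -0.09 (ceh-22), and the median of the 6 was 0.10. The summed epidermis markers overlapped, at 1013 to 1159 CPM in linc-4 and 974 to 1320 CPM in wild type. Those of body wall muscle were apart, at 3621 to 4300 CPM in linc-4 and 2881 to 3398 CPM in wild type, though none of the 8 markers passed by limma-voom or in the authors' deposited table, 2 had an unadjusted p under 0.05 and 2 had a fitted value below 0. The intestine sums were apart the other way, at 4769 to 5007 CPM in linc-4 and 5312 to 7054 CPM in wild type. Of the 10 intestine markers 1 was up (ges-1) and 2 were down (the vitellogenins vit-2 and vit-6, which are also among the adult markers). The median of the 10 was -0.07. The part of any of these tissues in the rise of sma-10 was not tested.

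**Figure D3:**
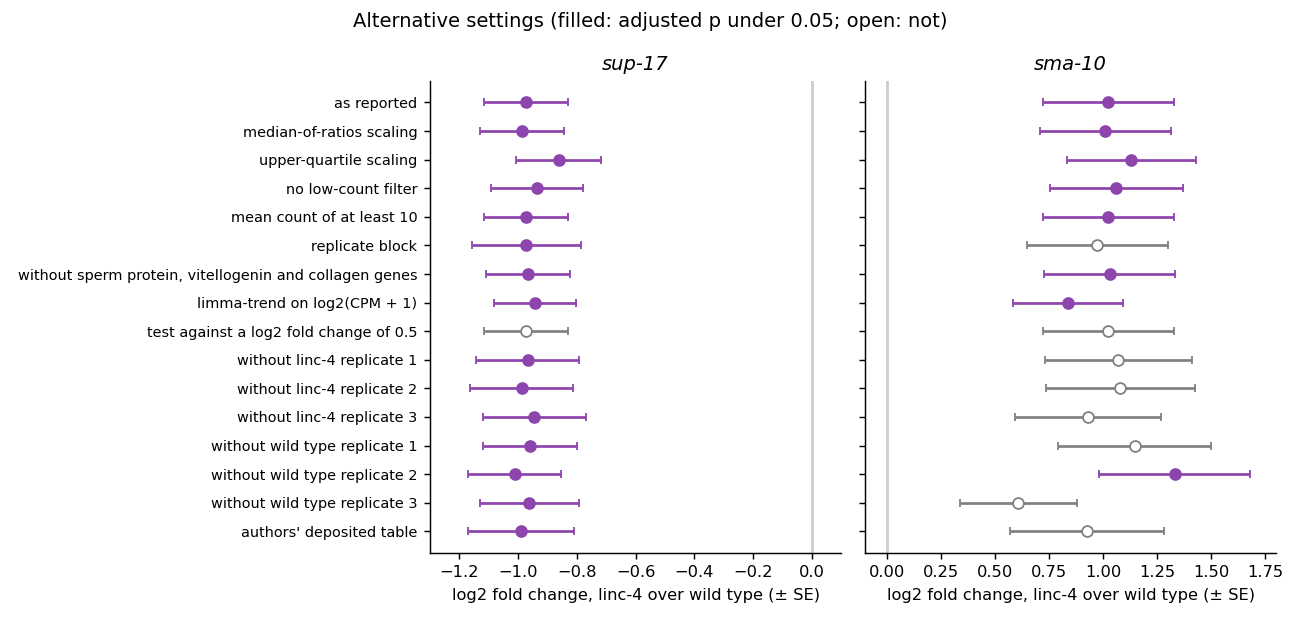
Fitted log2 fold change, linc-4 over wild type, of sup-17 (left) and sma-10 (right) under each setting on the vertical axis; bars are ± 1 SE, filled points have an adjusted p under 0.05 and open points do not. sup-17 stays between -1.01 and -0.86 and is open at 1 setting, the test against 0.5; sma-10 ranges from 0.61 to 1.33 and is open at 8 of 15 alternatives.

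Inside the cell, SMA-2 and SMA-3 are the receptor-regulated Smads and SMA-4 is the common partner Smad; all 3 are needed for normal body size. sma-2 (WBGene00004856, chromosome III from 8749763 to 8757069, + strand) had 11.4, 10.99 and 8.53 CPM in linc-4, against 10.8, 7.31 and 7.22 CPM in wild type. sma-3 (WBGene00004857, chromosome III from 6860939 to 6863968, - strand) had 10.8, 11.4 and 14.5 CPM in linc-4, against 9.77, 11.1 and 10.1 CPM in wild type. sma-4 (WBGene00004858, chromosome III from 5816203 to 5820200, + strand) had 12.2, 10.1 and 14.2 CPM in linc-4, against 11.1, 13.7 and 7.58 CPM in wild type. The groups overlapped for each of the 3 Smads, and no library was highest or lowest in its group for all of them. Their log2 fold changes were 0.30 (SE 0.22), 0.24 (SE 0.20) and 0.21 (SE 0.23) for sma-2, sma-3 and sma-4, with upper 95% bounds of 0.78, 0.66 and 0.72. The 3 fitted values were alike in size and sign, and none passed (adjusted p = 0.35, 0.41 and 0.55 by limma-voom). The value of sma-4 turned to -0.04 without wild type 3, its lowest wild type library.

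Of these genes sma-2 alone shares ground with counted neighbours that were tested. On the opposite strand aak-1, a subunit gene of AMP-activated kinase, shares 100 exon bases with it and ugtp-1 shares 52, while tomm-70 overlaps its span and shares 0 exon bases. The sources used here do not say whether reads were counted by strand, so a small part of the sma-2 reads may belong to aak-1 or ugtp-1. Their log2 fold changes were -0.21 and -0.40 and did not pass. sma-9 shares 47 exon bases with clc-4, and dbl-1 shares 9 with T25F10.4, both too low in reads to be tested.

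SMA-9 is a large zinc finger protein of the Schnurri family that works with the Smads on transcription in the nucleus. sma-9 (WBGene00004862, chromosome X from 10769288 to 10782973, + strand) had 8.71, 10.5 and 8.30 CPM in linc-4, against 10.8, 6.85 and 8.84 CPM in wild type. The linc-4 libraries lay inside the wild type range. The log2 fold change was 0.08 (SE 0.22; 95% interval -0.39 to 0.55), and it was -0.11 without wild type 2. The gene has 16 annotated transcripts over 7732 exon bases, the most of both among the 10 genes, and the table gives 1 count for all of them, so a shift between its isoforms could not be seen.

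LON-1, a secreted protein of the cysteine-rich CRISP family made in the epidermis, restrains body length, and lon-1 transcript is known to be held down by DBL-1 signalling. lon-1 (WBGene00003055, chromosome III from 5474478 to 5478005, + strand) therefore serves as both a member and a known target. It had 684, 613 and 968 reads in linc-4 libraries and 237, 435 and 518 in wild type libraries, the most of the 10 genes. Its level was 87.6, 91.1 and 73.7 CPM in linc-4, against 60.9, 66.2 and 93.5 CPM in wild type. The ranges overlapped because wild type 3 was the highest of all 6 libraries. The log2 fold change was 0.20 (SE 0.17; 95% interval -0.17 to 0.58; limma-voom adjusted p = 0.42), and 0.39 without wild type 3, which did not pass either.

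**Figure D4:**
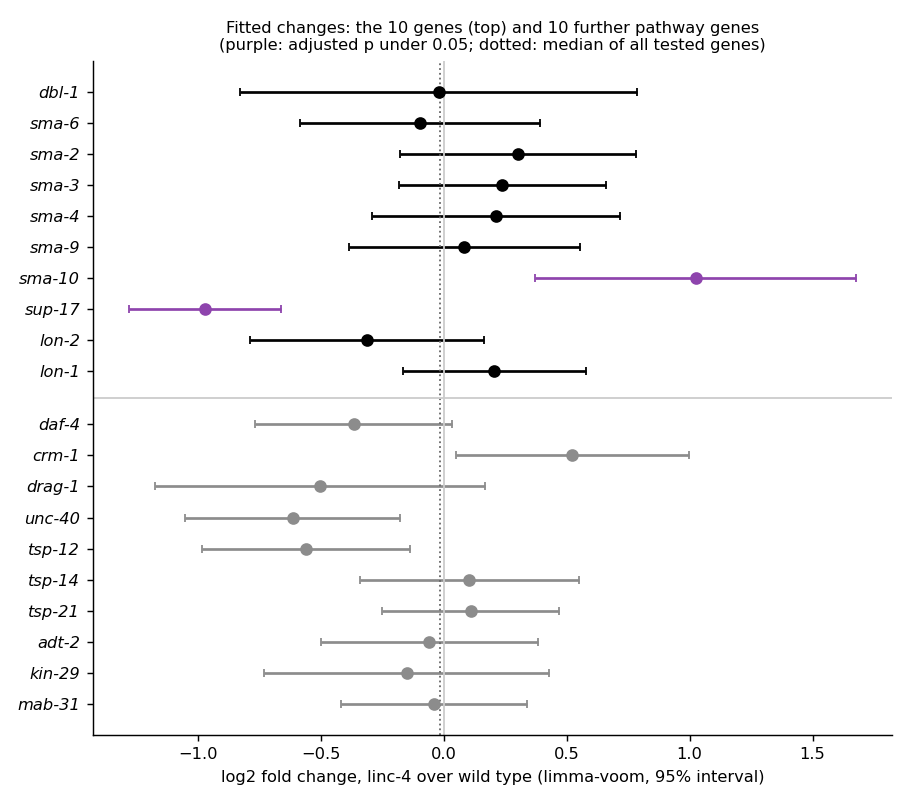
Fitted log2 fold change, linc-4 over wild type, with its 95% interval (horizontal axis) for the 10 genes, ordered from ligand to target (top, with the surface proteins sma-10, sup-17 and lon-2 before lon-1), and for 10 further genes of the pathway (bottom, grey); the dotted line is the median of all tested genes. sup-17 at -0.97 and sma-10 at 1.02, in purple, passed the threshold; the intervals of the other 8 of the 10 genes include 0 and end inside -0.83 and 0.79.

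Per length the 10 genes spanned a wide range of levels. In CPM per kilobase of exon, lon-1 was highest, at 71.6 ± 7.82 in linc-4 and 62.6 ± 14.8 in wild type (SD, n = 3 each), and sma-9 lowest, at 1.19 ± 0.155 in linc-4 and 1.14 ± 0.255 in wild type. Tested genes had a median level of 9.56 in linc-4 and 9.06 in wild type on this scale, and 8 of the 10 genes had a 6-library mean below that of the median tested gene. Only lon-1, above 84.7% of tested genes with a length, and sup-17, above 52.1%, exceeded it. The 3 Smad genes stood near the middle, sma-3 above 48.0%, sma-4 above 40.2% and sma-2 above 37.97% of tested genes, and dbl-1 (13.8%), sma-10 (13.1%) and sma-9 (6.38%) stood lowest.

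The order of levels changed at sup-17 and sma-10. In linc-4 the order per kilobase was lon-1, sma-3, sup-17, sma-4, sma-2, lon-2, sma-6, sma-10, dbl-1 and sma-9. In wild type it was lon-1, sup-17, sma-3, sma-4, sma-2, lon-2, sma-6, dbl-1, sma-10 and sma-9. sup-17 stood at 6.98 ± 0.247 CPM per kilobase in linc-4 and 13.7 ± 0.484 in wild type, so it was below sma-3 in linc-4 and above it in wild type with no overlap of libraries in either group. In linc-4 the ranges of sup-17 and sma-4, of sma-4 and sma-2 and of sma-6 and sma-10 overlapped. In wild type those of sma-4 and sma-2, of sma-2 and lon-2 and of all neighbours from sma-6 down overlapped. Among these genes the receptor gene sma-6, at 2.41 ± 0.344 in linc-4 and 2.61 ± 0.174 in wild type, was below each of the 3 Smad genes.

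**Figure D5:**
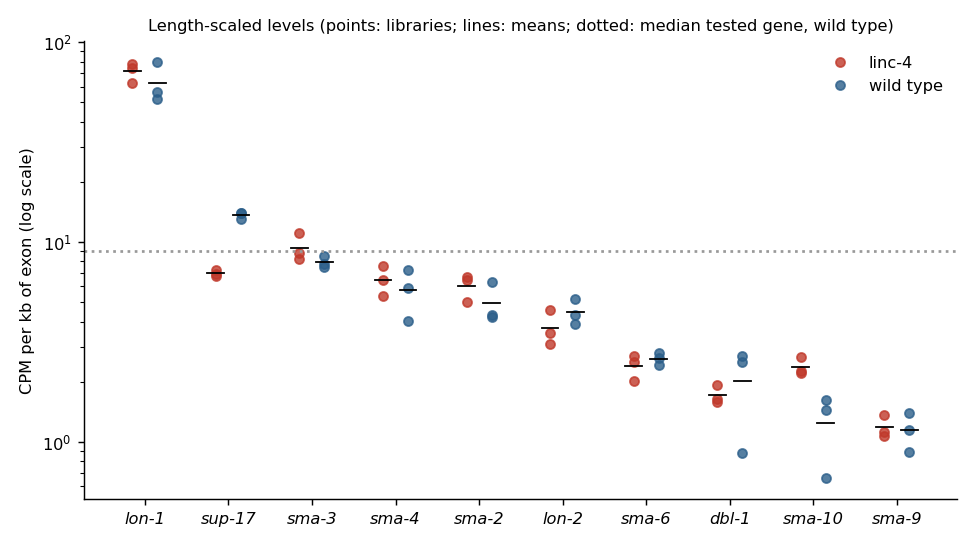
Level of each gene in CPM per kilobase of exon (vertical axis, log scale), ordered by the wild type mean, with linc-4 libraries in red left of wild type libraries in blue; lines are means of 3 libraries and the dotted line is the median tested gene in wild type, 9.06. lon-1 lies far above the line in both groups, sup-17 is above it in wild type and below it in linc-4, and the points of dbl-1 and sma-10 in wild type are the most spread.

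In genome position the 10 genes share little. 4 lie on chromosome III (lon-1, sma-2, sma-3 and sma-4), 2 on chromosome X and 1 each on chromosomes I, II, IV and V, with 8 on the + strand. The relative spread between libraries was larger in wild type for 6 of the 10 genes. Within wild type it was largest for dbl-1, with a coefficient of variation of 10.8% in linc-4 and 49.1% in wild type, and for sma-10, with 10.2% in linc-4 and 41.2% in wild type. These are also the genes with the fewest wild type reads (52 and 60 in all). Within linc-4 it was largest for lon-2, at 20.8%, against 14.5% in wild type.

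None of 10 further genes of the pathway passed by limma-voom, while 3 of them had an unadjusted p under 0.05, as did 34.5% of all tested genes, and none passed in the authors' deposited table. These were the surface regulators crm-1, drag-1, unc-40, tsp-12, tsp-14 and tsp-21, the receptor daf-4, the protease adt-2, the kinase kin-29 and the nuclear factor mab-31, and their median log2 fold change was -0.11. unc-40, which encodes a netrin receptor of the DCC and neogenin family that also promotes DBL-1 signalling, came nearest, with 10.9 CPM in linc-4 and 16.7 CPM in wild type on average (log2 fold change -0.61, adjusted p = 0.050). tsp-12, the tetraspanin partner of SUP-17, averaged 61.3 CPM in linc-4 and 91.9 CPM in wild type (log2 fold change -0.56, SE 0.20, adjusted p = 0.061), and linc-4 3 was above wild type 3. crm-1, a crim-type regulator, had the highest value, 0.52 (limma-voom adjusted p = 0.11).

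Of 4 tested genes of membrane trafficking that recycle or take up the receptors, 2 fell and none rose (median log2 fold change -0.40), where 7.18% of all tested genes fell. vps-35, a subunit of the retromer that returns SMA-6 to the surface, had 39.2, 38.9 and 32.4 CPM in linc-4, against 54.002, 49.6 and 66.2 CPM in wild type (log2 fold change -0.62, SE 0.16, limma-voom adjusted p = 0.019). rme-1, an EHD protein of endocytic recycling, had 52.5, 56.0 and 53.98 CPM in linc-4, against 76.4, 88.4 and 75.0 CPM in wild type (log2 fold change -0.56, SE 0.14, adjusted p = 0.016). For both genes the groups were apart and lower in linc-4, as for 17.7% of all tested genes. The germline markers, of which 11 of 16 fell with a median of -0.70, moved the same way, and their part in these falls was not tested. The vps-35 call was lost in 4 of the 6 leave-one-out fits, where its adjusted p reached 0.074, and that of rme-1 in 1 (0.062, without linc-4 2).

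Among 6 tested genes reported to respond to DBL-1 signalling, 1 rose and none fell, where 11.5% of all tested genes rose. Their median log2 fold change was 0.39. The list pools lon-1, held down by DBL-1, with cnc-2, whose induction needs it, so this median gives no direction of signalling. The riser was cnc-2, an epidermal antimicrobial peptide gene of the caenacin family whose induction by fungus needs DBL-1. It had 30.2, 48.0 and 38.2 CPM in linc-4, against 6.69, 10.4 and 9.20 CPM in wild type, with a log2 fold change of 2.10 (SE 0.23, limma-voom adjusted p = 8.6e-05). Every linc-4 library was far above every wild type library, where 21.2% of all tested genes were higher in linc-4 with no overlap. The call held when any library was left out. The rise was not particular to cnc-2: of 9 tested caenacin genes, looked up after their values were seen, 7 rose and none fell, among them cnc-1 (3.14), cnc-4 (2.22) and cnc-6 (2.15). The collagen gene rol-6 had a log2 fold change of 0.34 and col-41 of -0.23, and neither passed. The other tested genes of this list, lon-1, lys-8 and mab-21, had 0.20, 0.44 and 0.53 and did not pass.

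Of 5 other genes that set body size 1 fell and none rose, where 7.18% of all tested genes fell. The faller was egl-4, the cGMP-dependent kinase that restrains body size. egl-4 had 74.6, 60.5 and 62.1 CPM in linc-4, against 103.6, 81.0 and 110 CPM in wild type (log2 fold change -0.57, SE 0.16, limma-voom adjusted p = 0.026). All linc-4 libraries were below the lowest wild type library, as for 17.7% of all tested genes. Yet the call was lost without linc-4 2 (adjusted p = 0.12), linc-4 3, wild type 1 or wild type 3 and with upper-quartile scaling (0.067). The collagen gene lon-3 (0.37), lon-8 (0.23), the spectrin gene sma-1 (-0.29) and the kinase gene sma-5 (0.19) did not pass.

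Of 8 tested genes of the other TGF-beta branches 1 rose and none fell, with a median of 0.08. Over all tested genes 11.5% rose and 7.18% fell. daf-14, a Smad of the dauer pathway, had 20.999, 27.6 and 12.0 CPM in linc-4, against 8.74, 7.003 and 11.2 CPM in wild type (log2 fold change 1.07, SE 0.31, limma-voom adjusted p = 0.030). linc-4 3 was only just above the highest wild type library, and the call was lost when linc-4 1, linc-4 2, wild type 1 or wild type 2 was left out (adjusted p up to 0.11).

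Since SUP-17 also cleaves Notch receptors, the Notch genes were set beside it. All 10 tested genes of that list had a fitted log2 fold change below 0, with a median of -0.48, where 48.8% of all tested genes were above 0. Of these 10 genes 5 were lower in linc-4 with no overlap between the groups, as were 17.7% of all tested genes. An unadjusted p under 0.05 by limma-voom was reached by 4 of them and by 34.5% of all tested genes. In this list 1 of 10 passed, a share near the 7.18% of falls over all genes. This was lag-1, the DNA-binding protein through which Notch receptors act, with 7.298, 7.58 and 9.36 CPM in linc-4, against 15.9, 12.6 and 12.3 CPM in wild type (log2 fold change -0.71, SE 0.20, adjusted p = 0.026). Its groups were apart and lower in linc-4, as for 17.7% of all tested genes. Its call was lost without linc-4 1, linc-4 2 or wild type 1 (limma-voom adjusted p up to 0.11). It was also lost with the replicate block (0.051) and with upper-quartile scaling (0.050). adm-4, the other ADAM protease of Notch cleavage, had -0.73 (adjusted p = 0.073). The germline markers given above moved the same way as this list, and their part in it was not tested.

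The genes whose log2 CPM followed sup-17 most closely over the 6 libraries, among 9103 others with a mean count of at least 50, were ruvb-1, C04B4.2 and acdh-1, with Pearson's r of 0.996, 0.995 and 0.994. ruvb-1 encodes a RuvB-like ATPase and acdh-1 an acyl-CoA dehydrogenase. Their log2 fold changes were -0.45, -0.77 and -2.72, so a close likeness in pattern went with very different sizes of change, and 247 genes had an r above 0.95. For sma-10 they were ges-1, F46H5.7 and K02B7.3, with r of 0.993, 0.992 and 0.991. ges-1, a gut esterase, rose by 0.64 (limma-voom adjusted p = 0.043, lost in 5 of 6 fits with a library left out), and the other two had 0.28 and 0.30 and did not pass. All these values are over the same 6 libraries and serve as a description only.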

How the data were processed

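The submitters' processing notes name TopHat2 2.1.1, cutadapt 2.10, DESeq2 1.22.2, HTSeq 0.12.4 and the build WBcel235 (settings, strandedness and filters: not given in the sources used here). The deposited table holds raw read counts for 22389 of 46904 rows (whole numbers), and a question mark in the other 24515. Because of these marks the columns could not be registered as counts here; the planned test, limma-voom, was used.

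A gene entered the test with, in 3 libraries, at least the CPM equal to 10 reads in a library of median size (2 where a library was left out) and 15 reads in all. Libraries were scaled by the TMM method, trimming 30% of log ratios and 5% of abundances, and limma 3.58.1 in R 4.3.3 was fitted on 13778 genes with Benjamini-Hochberg adjustment, linc-4 over wild type, two-sided. A floor of 3 reads was 0.228 to 0.446 CPM in linc-4 and 0.457 to 0.771 CPM in wild type libraries. Replicates differed by more than counting noise (4.91 to 19.5 as chi-square over its degrees of freedom). Positions are those of the deposited table; exon lengths and overlaps come from Ensembl release 115 of the same build, which gives the same span for 3 of the 10 genes. The fit was tested on simulated data. Members and lists were chosen with earlier results of these data known. Besides the 10 genes, the text names list genes past the threshold, daf-4, overlapping tested genes and the 3 genes most like sup-17 and sma-10; other genes were named after their values were seen.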

Additional observations from a re-analysis of the deposited data

How the results depend on the processing

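The number of genes called, 2580, was 1714 with a replicate block, 235 in the test against a log2 fold change of 0.5, and 947 to 2848 with a library left out, lowest without linc-4 2. Of the 10 pathway genes 2 were called; with the replicate block, and in the authors' deposited table, it was 1 (sup-17), and with a library left out 1 or 2. In the test against 0.5 by limma it was 0, with 1 at an unadjusted p under 0.05. Same-numbered libraries of the groups had correlations of their deviations of 0.09, -0.09 and -0.34, and differently numbered ones from -0.37 to 0.42. Deviations from a group mean constrain each other, so these values cannot tell whether libraries were paired.

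Some small fitted values changed sign, none past the threshold: dbl-1 was 0.10 with upper-quartile scaling, 0.012 without the low-count filter and -0.62 to 0.27 with a library left out; sma-6 was 0.015 with upper-quartile scaling and -0.19 to 0.014 with a library left out; sma-4 ran from -0.039 to 0.44 and sma-9 from -0.11 to 0.21 with a library left out. The cause was not tested. lon-1, lon-2, sma-2 and sma-3 kept their sign and stayed short of the threshold in all 15 alternatives. With upper-quartile scaling the median log2 fold change of all genes was 0.11 higher, with 2065 rises and 476 falls, against 1591 and 989. Low read numbers limit the precision of dbl-1 (81 reads in linc-4 and 52 in wild type) and, in wild type, of sma-10 (60).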
